A study of Mus musculus with 40 samples.

Results

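The 9 genes described here encode the kinases that carry the lipopolysaccharide (LPS) signal of the Toll-like receptor TLR4 through the mitogen-activated protein kinase (MAPK) cascade. They were taken as a named set: Map3k7 and Map3k8, Map2k3 and Map2k6, Mapk14, Mapk8, Mapk9 and Mapk3, and Mapkapk2. All 9 are among the 27179 genes of the expression table, and all 9 passed the filter on low values in every comparison.

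Bone marrow-derived macrophages (BMDMs) are macrophages grown in culture from the marrow of the femur, here for 7 days with L-cell conditioned medium. They came from adult male mice of a mixed C57BL/6J and 129 background. The 4 WT mice carried both copies of Cpeb4, and the 4 Cpeb4-/- mice were total knockouts of this gene, which encodes an RNA-binding protein of mRNA 3′-UTRs. Cells of each mouse were left untreated (0 hr) or received 10 ng/ml LPS from E. coli 0111:B4 for 1, 3, 6 or 9 hr, so that each genotype had 4 libraries at each of 5 times, 40 in all. The labels give no culture without LPS at the later times, so the change after LPS and the time in culture cannot be told apart. Each of 2 batches named in the labels held 2 mice of each genotype. No cage held both genotypes, so cage and genotype cannot be told apart.

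In this cascade, a MAP kinase kinase kinase (MAP3K) phosphorylates a MAP kinase kinase (MAP2K), which in turn phosphorylates a MAP kinase on a threonine and a tyrosine. TAK1 (Map3k7) is activated by TRAF6 and its TAB partners downstream of TLR4, and TPL2 (Map3k8) is released from NF-kappaB1 p105 by the IKK complex. MKK3 (Map2k3) and MKK6 (Map2k6) activate p38 alpha (Mapk14), JNK1 (Mapk8) and JNK2 (Mapk9) act on c-Jun, ERK1 (Mapk3) lies below TPL2 and MEK, and MK2 (Mapkapk2) is activated by p38 and phosphorylates the ARE-binding protein TTP. These kinases are switched by phosphorylation, and mRNA levels do not measure their activity.

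CPEB4 binds cytoplasmic polyadenylation elements (CPEs), and TTP binds AU-rich elements (AREs) in 3′-UTRs. The longest annotated 3′-UTR of each kinase was therefore searched on the sense strand for 7 CPE motifs, namely TTTTAT or TTTTAAT or TTTTAAAT or TTTTACT or TTTTCAT or TTTTAAGT or TTTTGT, and for the ARE pentamer ATTTA, with overlapping matches counted. Mapk8 held 17 CPE matches in 4410 bases, Map3k7 17 in 3934 and Mapk9 11 in 3263. Mapk14 held 4 in 2068 bases, Map2k6 4 in 918, Mapkapk2 3 in 1392, Map3k8 3 in 979 and Map2k3 3 in 964. Mapk3 held none in 612 bases. Of 20846 mouse genes with an annotated 3′-UTR, 73.4% held at least 1 CPE match (median 2 matches, 2.3 per kb), and 5.2% held 17 or more. ARE pentamers numbered 7 in Mapk8, in Mapk9 and in Map3k7, 4 in Map3k8, 2 in Map2k6, 1 in Mapk14 and in Mapkapk2, and 0 in Map2k3 and in Mapk3, where 65.7% of all genes held at least 1. Per kb, Map3k8 had the most of the 9, at 4.09 against a median of 1.26 over all genes. The 3 longest of the 9 held the most matches of both kinds. A match is only these letters, not a site shown to be bound.

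The most 3′ CPE match of 4 of these 3′-UTRs is shown in capitals with its surroundings (30 bases, 5′ to 3′ on the sense strand, mouse build GRCm38, GENCODE M21 transcripts). In the Mapk14 stretch the lower-case bases before the capitals also hold a CPE match, TTTTAAT. Mapk8 and Mapk14 are shown because their levels differed between the genotypes. Mapkapk2 and Map2k3 are shown because they rose after LPS with no genotype difference past the threshold, although Map2k3 passed under some alternatives given below. Map3k8 and Mapk3 also differed between the genotypes, but Mapk3 held no CPE match and the Map3k8 stretch is not shown.
Mapk8: tggttataataTTTTAAATaaaaaagaaaa
Mapk14: attattttaataTTTTGTattttcaccttt
Mapkapk2: tgtaaactctcgTTTTGTatgagcaaaatt
Map2k3: acctattgctgTTTTAATtaaaaaaaaaaa
The Mapk8 stretch lies at chr14:33377910-33377939 on the minus strand, where the CPE ends 23 bases before the annotated end of the transcript. The Map2k3 stretch, at chr11:60952761-60952790 on the plus strand, places the CPE 33 bases before the end. The Mapkapk2 stretch is at chr1:131053730-131053759 on the minus strand, with 42 bases between CPE and end. The Mapk14 stretch is at chr17:28747757-28747786 on the plus strand, 632 bases before the end. In the Mapk8 and Map2k3 stretches the CPE runs into a match to a poly(A) signal (AATAAA or ATTAAA).

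Per the RefSeq gene annotation of the same build, 3 of the 9 genes lie on chromosome 11, as does Cpeb4 (chr11:31870104-31935635). These are Mapk9 (chr11:49846728-49886421), Map2k3 (chr11:60932054-60952811) and Map2k6 (chr11:110399102-110525522). The mice were of mixed background, and which alleles each carried near Cpeb4 was not tested. Map2k6 overlaps the long non-coding RNA gene Gm39446, and whether reads were counted by strand is not given in the sources used here. Map2k6 reads cannot then be told apart from those of Gm39446 where the exons overlap.

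The deposited values are regularized log (rlog) values, which are on a log2 scale, corrected for library size and shrunken where counts are low. A difference of 1 is a 2-fold change on this scale, and levels are not compared between genes because rlog values are not per length. The 4 WT values of a time are given in the order of mice 25, 69, 87 and 88, and the 4 Cpeb4-/- values in the order of mice 2, 3, 55 and 62. The macrophage markers Adgre1, Csf1r and Cd68 ranged from 14.0 to 16.5 in all 40 libraries. The neutrophil markers Ly6g and Elane were below 0 in every library, but others of that list were not. S100a8 was at 5.00 to 7.60 in WT and 5.35 to 7.70 in Cpeb4-/- libraries, and S100a9 at 4.05 to 6.01 and 3.93 to 5.92. Camp was at 2.13 to 4.89 and 2.00 to 5.00, and Mpo at -0.33 to 0.68 and -0.33 to 0.39. The summed levels of the 4 fibroblast markers spanned 2.42 to 3.61 in WT and 2.59 to 5.63 in Cpeb4-/- libraries, none of the 4 passing the filter on low values. The summed levels of the 6 neutrophil markers, 3 of which passed the filter, went from 5.88 to 6.81 in untreated cells to 7.26 to 8.09 at 9 hr. Those of the 4 dendritic cell markers, 3 of which passed, went from 5.13 to 6.18 untreated to 7.23 to 7.49 at 3 hr. The summed levels of the 7 macrophage markers, all of which passed, were 18.9 to 19.3 in WT and 18.6 to 19.0 in Cpeb4-/- libraries. They did not overlap between the genotypes at any time. Lyz2 had the highest values of the 7 (medians 18.47 in WT and 17.97 in Cpeb4-/- libraries) and weighed most in this sum. The medians of Adgre1, Csf1r, Cd68 and Fcgr1 were also lower in Cpeb4-/- libraries. Those of Itgam (14.64 in WT and 14.68 in Cpeb4-/-) and Mertk (9.555 and 9.787) were higher. The part of these markers in the results was not tested. Levels of Cpeb4 itself overlapped between the genotypes at 4 of 5 times, and only at 6 hr were all Cpeb4-/- libraries (8.74 to 9.66) below all WT libraries (10.1 to 10.7). Counts were summed over the whole gene, the deleted exons are not given in the sources used here, and reads from the rest of the gene would still be counted, so this is no check of the genotype at the other times. The directions below are therefore those between libraries as labelled. Within some groups the libraries stood apart from each other over all genes: mice 87 and 88 from 25 and 69 in WT cells at 1 hr, mice 25 and 87 from 69 and 88 in WT cells at 3 hr, and mouse 2 from the other Cpeb4-/- mice at 1 and 9 hr. The first principal component held 70.4%, 64.7%, 52.5% and 62.7% of the spread within these groups, and 57.5% within untreated WT cells, where mouse 87 stood apart. Calls that changed without these libraries are named below. In bulk RNA, fewer cells of a type and less RNA per cell cannot be told apart.

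The levels of most of the 9 kinase mRNAs changed after LPS. Mapkapk2 and Map3k8 rose at all 4 times in both genotypes, by up to about 2 on the log2 scale, Map2k3 rose early, and Map2k6 and Mapk3 fell. Mapk14 was lowest at 6 hr. An adjusted p under 0.05 (limma, Benjamini-Hochberg over all genes tested) was the threshold for a call. In WT cells at 1 hr, 5 of 9 members rose and 1 fell, where 17.3% of the 13100 genes tested rose and 16.6% fell. At 3 hr, 5 rose and 2 fell (32.5% and 35.3% of all genes), at 6 hr 3 rose and 4 fell (38.7% and 39.2%), and at 9 hr 4 rose and 2 fell (35.9% and 35.6%). In Cpeb4-/- cells at 1 hr, 6 rose and 0 fell (23.8% and 20.0% of 13116 genes), at 3 hr 6 rose and 2 fell (34.4% and 36.9%), at 6 hr 5 rose and 3 fell (39.0% and 40.1%), and at 9 hr 6 rose and 2 fell (both 36.4%). Many genes changed after LPS, and the counts of the kinases were not tested against these shares. At 1 hr a larger share of the 9 than of all genes rose in both genotypes, but the set was chosen with earlier results known. The size and shape of each change are described instead. From 1 to 9 hr, the median change of the 9 members in WT cells was 0.23, 0.19, 0.10 and 0.02, against 0.02, -0.02, -0.02 and -0.004 over all genes tested. In Cpeb4-/- cells it was 0.33, 0.25, 0.16 and 0.22, against 0.02, -0.03, -0.02 and -0.008. Under quantile normalization, which forces all libraries to one distribution, the members' median turned negative at 6 hr, at -0.11 in WT and -0.14 in Cpeb4-/- cells, and stayed positive at the other times. It also moved the split of WT members that rose and fell, from 1 to 9 hr, to 4 and 3, 4 and 4, 3 and 4, and 3 and 3. For Cpeb4-/- cells the split became 6 and 3, 5 and 4, 4 and 5, and 5 and 3. The shares of all genes given above are those without quantile normalization, so they are no measure for these splits.

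**Figure D1:**
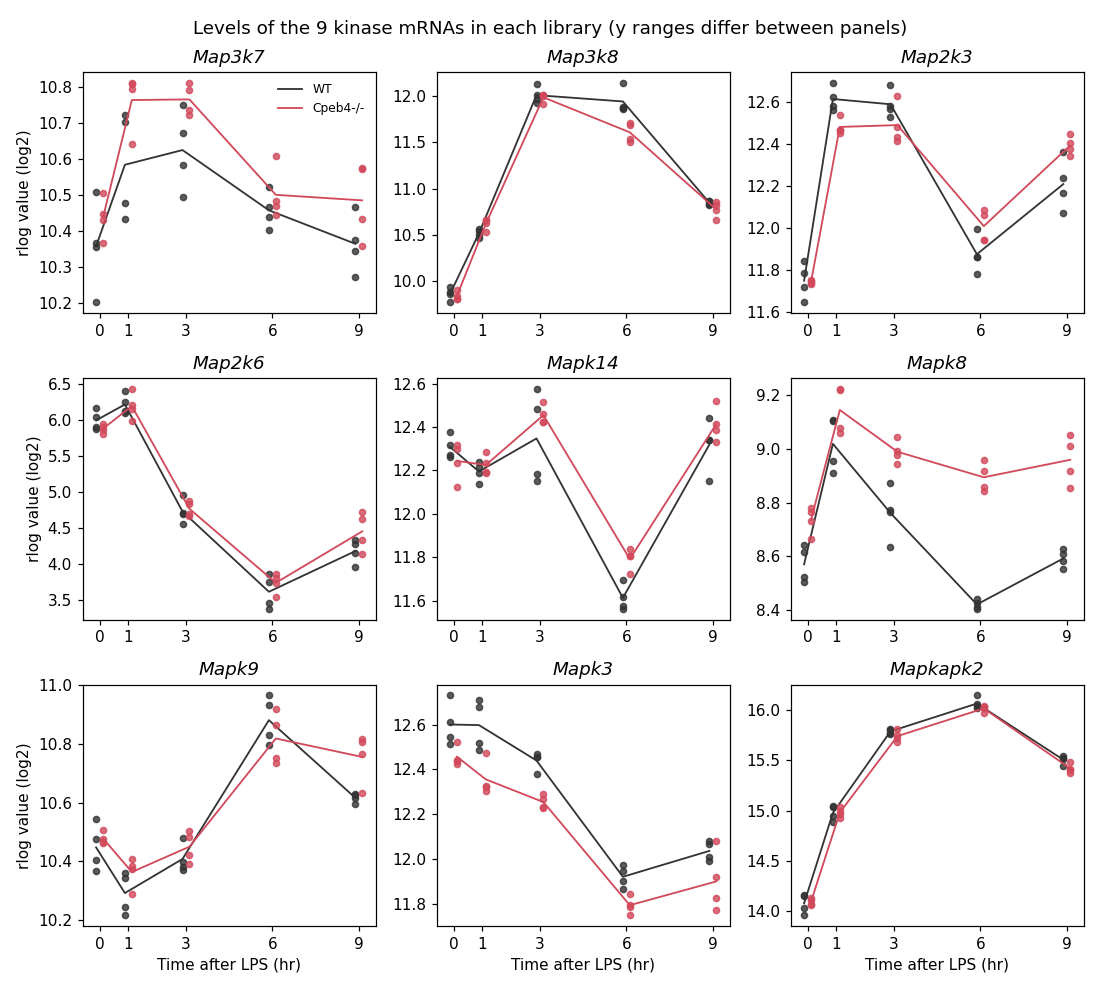
Level of each of the 9 kinase mRNAs (rlog, log2, vertical axis, with its own range per panel) against the time after LPS in hours, one point per library and a line through the mean of 4 mice, WT in black and Cpeb4-/- in red. Map3k8 and Mapkapk2 peaked at 3 and 6 hr, Map2k6 was lowest at 6 hr, and the Mapk8 points of the genotypes did not overlap at 0, 3, 6 and 9 hr.

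Among the MAP3Ks, Map3k8 (TPL2) had the largest rise of the 9 kinases. WT cells held 9.88, 9.86, 9.77 and 9.93 untreated and 11.97, 12.01, 11.93 and 12.13 at 3 hr. The Cpeb4-/- values were 9.91, 9.81, 9.81 and 9.84 untreated and 12.01, 12.01, 11.92 and 12.00 at 3 hr. Every 3 hr library lay above every untreated library in both genotypes. The WT rise was 0.65, 2.15, 2.08 and 0.98 (each ± 0.058, SE) from 1 to 9 hr, that of 3 hr being 4.43-fold (adjusted p = 1.46e-17). Over the same times the rise of Cpeb4-/- cells was 0.78, 2.14, 1.76 and 0.93 (each ± 0.051). The order of the WT levels was 3, 6, 9, 1 and 0 hr, of which only 3 and 6 hr overlapped. The Cpeb4-/- order was the same, but 3 and 6 hr did not overlap and 9 and 1 hr did.

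Map3k7 (TAK1) moved little. Its 10 group means spanned 0.41, less than those of any other member, and 10.2% of the 13103 genes with a mean of at least log2 of 5 spanned as little or less. In WT cells it rose by 0.23 ± 0.074 at 1 hr (adjusted p = 0.0220) and by 0.27 at 3 hr (adjusted p = 0.00331), but the libraries overlapped those of untreated cells, which held 10.51, 10.36, 10.20 and 10.37. The rise at 1 hr was lost without mouse 25 (adjusted p = 0.0598) or mouse 69 (0.166), and under quantile normalization both rises were lost (0.129 at 1 hr and 0.156 at 3 hr). It rose in Cpeb4-/- cells by 0.33 ± 0.053 at both 1 and 3 hr, with no overlap with untreated libraries. At 6 and 9 hr the changes were 0.10 and 0.007 in WT and 0.06 and 0.05 in Cpeb4-/- cells, none past the threshold, although under quantile normalization the Cpeb4-/- change at 6 hr was -0.14 and passed (adjusted p = 0.0105).

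The MAP2Ks of p38 moved in opposite directions at 3 hr. Map2k3 (MKK3) was at 11.65, 11.79, 11.84 and 11.72 in untreated WT cells and at 12.56, 12.69, 12.62 and 12.58 after 1 hr of LPS. No library overlapped, and the rise was 0.87 ± 0.061 (1.82-fold, adjusted p = 3.3e-10). It was still 0.84 at 3 hr, and 0.46 at 9 hr, the last being 0.09 under quantile normalization (adjusted p = 0.189) and the 3 hr rise 0.40. At 6 hr the level was near that of untreated cells in WT (change 0.13 ± 0.061, adjusted p = 0.0642). With the mouse as a block, which compares each mouse with itself, this change passed (adjusted p = 0.00760), whereas under quantile normalization it was -0.41. The Cpeb4-/- rise was 0.74 (SE 0.045), 0.75 and 0.65 at 1, 3 and 9 hr, and 0.27 at 6 hr, where quantile normalization reversed the sign to -0.23. The same scaling lowered the Cpeb4-/- rises at 3 and 9 hr to 0.33 and 0.30. Both genotypes had 2 high phases with a low at 6 hr between them: all 6 hr libraries of a genotype lay below all of its libraries at 3 hr and at 9 hr.

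Map2k6 (MKK6) had the widest span of the 9 kinases, 2.60 between its highest and lowest group means, and 93.4% of genes spanned as much or less. In WT cells it went from 6.03, 5.90, 5.87 and 6.17 untreated to 3.76, 3.38, 3.47 and 3.86 at 6 hr. The Cpeb4-/- values were 5.86, 5.90, 5.95 and 5.80 untreated and 3.86, 3.74, 3.54 and 3.81 at 6 hr. No library overlapped between these times. At 3, 6 and 9 hr the difference from untreated WT cells was -1.26, -2.38 and -1.81 (SE 0.13, adjusted p = 4.35e-13 for 6 hr), and the Cpeb4-/- differences were -1.11, -2.14 and -1.42. On the linear scale the WT level at 6 hr was 0.193 of the untreated one. At 1 hr the change was 0.22 ± 0.13 in WT (adjusted p = 0.198) and 0.31 ± 0.12 in Cpeb4-/- cells (adjusted p = 0.0406). The latter was lost without mouse 2 (0.164), mouse 55 (0.0504) or mouse 62 (0.179), and with no filter on low values (0.0652). In this gene rlog values are low and shrunken, so the folds may be understated.

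Mapk14 (p38 alpha), the MAP kinase that both MAP2Ks feed, had its lowest level at 6 hr. WT cells held 12.32, 12.27, 12.26 and 12.38 untreated, 11.58, 11.62, 11.70 and 11.56 at 6 hr, and 12.34, 12.15, 12.44 and 12.34 at 9 hr. Cpeb4-/- cells held 12.24, 12.30, 12.12 and 12.32 untreated, 11.84, 11.80, 11.80 and 11.72 at 6 hr, and 12.33, 12.42, 12.38 and 12.52 at 9 hr. The 6 hr libraries lay below those of every other time in both genotypes. Against untreated cells, Mapk14 fell by 0.69 on the log2 scale in WT (SE 0.078, adjusted p = 6.68e-08) and by 0.45 in Cpeb4-/- cells (SE 0.047, adjusted p = 1.66e-08). Under quantile normalization these differences were -1.27 and -0.99, and those at 1 hr, -0.11 in WT and -0.02 in Cpeb4-/- cells without it, were -0.37 and -0.26 and passed. WT cells at 3 hr were split, with 12.48 and 12.57 in mice 69 and 88 and 12.18 and 12.15 in mice 25 and 87. The WT change at 3 hr was 0.04 (adjusted p = 0.673; -0.46 and past the threshold under quantile normalization) with all 4 mice and 0.22 (adjusted p = 0.00714) without the 3 hr libraries of mice 25 and 87. The same 2 libraries had the lower Cpeb4 levels of the group (9.26 and 8.82, against 10.1 and 10.9). They also stood apart from those of mice 69 and 88 over all genes, and a link between Cpeb4 and Mapk14 was not tested. In Cpeb4-/- cells Mapk14 rose by 0.21 at 3 hr and 0.17 at 9 hr, but under quantile normalization these changes were -0.26 and -0.24 and passed the threshold as falls. The WT change at 9 hr was 0.01 and likewise turned to -0.41 (adjusted p = 9.126e-05).

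Mapk8 (JNK1) rose at 1 hr in both genotypes. WT cells went from 8.64, 8.61, 8.50 and 8.52 to 9.11, 9.11, 8.95 and 8.91, and Cpeb4-/- cells from 8.73, 8.78, 8.66 and 8.76 to 9.06, 9.08, 9.22 and 9.22. The rise was 0.45 ± 0.058 in WT (1.37-fold, adjusted p = 3.11e-06) and 0.41 ± 0.053 in Cpeb4-/- cells (adjusted p = 1.92e-06), with no overlap. At 3 hr the level was 0.19 above untreated in WT, which was lost without mouse 87 (adjusted p = 0.0604) or mouse 88 (0.0757), and 0.25 above in Cpeb4-/- cells. At 6 hr the WT libraries held 8.44, 8.40, 8.42 and 8.41, below all untreated WT libraries, and the Cpeb4-/- libraries held 8.92, 8.84, 8.96 and 8.86, above all untreated Cpeb4-/- libraries. The change at 6 hr was -0.15 ± 0.058 in WT (adjusted p = 0.0248), which turned to 0.08 under quantile normalization and was lost without mouse 25 (adjusted p = 0.0910) or mouse 69 (0.124). In Cpeb4-/- cells it was 0.16 ± 0.053 (adjusted p = 0.00965), lost without mouse 55 (0.119). At 9 hr the WT change was 0.02 (adjusted p = 0.752) and that of Cpeb4-/- cells 0.22 (adjusted p = 0.000750). Under quantile normalization the WT change at 9 hr was 0.19 and passed (0.00429).

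Mapk9 (JNK2) took another course. In WT cells it fell by 0.16 at 1 hr (a difference of -0.16 ± 0.050, adjusted p = 0.0199) and rose by 0.43 at 6 hr (adjusted p = 1.08e-07), from 10.54, 10.48, 10.37 and 10.40 untreated to 10.80, 10.93, 10.83 and 10.96. The Cpeb4-/- differences were -0.11 ± 0.048 at 1 hr (adjusted p = 0.0585, and 0.0342 with the mouse as a block) and 0.34 at 6 hr. The fall of WT cells at 1 hr was lost when any one mouse was left out, and without the 1 hr libraries of mice 87 and 88 (-0.09, adjusted p = 0.228). Under quantile normalization it was larger (-0.26, adjusted p = 0.000156), and the rises at 6 hr were smaller (0.17 in WT and 0.10 in Cpeb4-/- cells). At 9 hr the level was 0.17 above untreated in WT and 0.28 above in Cpeb4-/- cells, past the threshold in both, although under quantile normalization the WT rise was 0.008 (adjusted p = 0.890).

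Mapk3 (ERK1) fell at 3, 6 and 9 hr. Its WT values were 12.51, 12.55, 12.73 and 12.61 untreated and 11.94, 11.90, 11.97 and 11.86 at 6 hr, and its Cpeb4-/- values 12.44, 12.43, 12.52 and 12.44 untreated and 11.84, 11.75, 11.78 and 11.79 at 6 hr. All 6 and 9 hr libraries lay below all untreated libraries of their genotype. At 3, 6 and 9 hr the difference from untreated WT cells was -0.16, -0.68 and -0.57 (SE 0.054, adjusted p = 3.27e-10 for 6 hr), and -0.20, -0.66 and -0.56 in Cpeb4-/- cells. Under quantile normalization the falls were larger, with WT differences of -0.73, -1.34 and -1.07. At 1 hr the difference was -0.003 in WT (adjusted p = 0.978) and -0.10 in Cpeb4-/- cells (0.131), but -0.29 and -0.37 under quantile normalization, where both passed. The Cpeb4-/- difference at 1 hr also passed without mouse 2 (-0.15, adjusted p = 0.00996). The fall of WT cells at 3 hr was lost without mouse 87 (adjusted p = 0.0532) or mouse 88 (0.0790).

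Mapkapk2 (MK2), the kinase below p38, climbed to 6 hr. The WT libraries held 14.04, 13.97, 14.16 and 14.17 untreated, 14.95, 14.89, 15.05 and 15.04 at 1 hr, and 16.06, 16.04, 16.15 and 16.02 at 6 hr. The Cpeb4-/- libraries held 14.06, 14.07, 14.12 and 14.14, then 15.04, 14.97, 14.93 and 14.99, then 16.04, 15.97, 16.03 and 16.02. In both genotypes the order was 6, 3, 9, 1 and 0 hr, and no neighbours in that order overlapped. From 1 to 9 hr the WT change was 0.90, 1.71, 1.98 and 1.43 (each ± 0.051), that of 6 hr being 3.96-fold (adjusted p = 2.93e-18), and the Cpeb4-/- change was 0.89, 1.65, 1.92 and 1.32 (each ± 0.039). Under quantile normalization the rise kept its direction and was smaller. From 1 to 9 hr it was then 0.48, 1.06, 1.105 and 0.96 in WT cells (each ± 0.046). In Cpeb4-/- cells it was 0.48, 1.03, 1.18 and 0.92 (each ± 0.037). The WT rises at 3 and 6 hr thus lay close together under this scaling, and their difference was not tested.

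**Figure D2:**
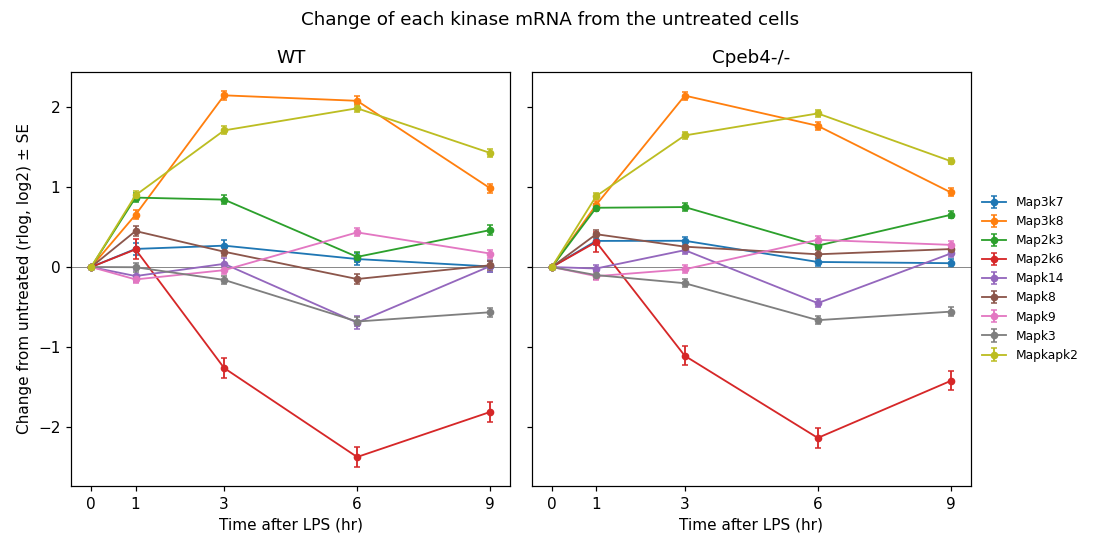
Change of each kinase mRNA from untreated cells (rlog difference, log2, vertical axis) against time after LPS in hours, in WT (left) and Cpeb4-/- cells (right), with bars of 1 SE from the limma fit of 20 libraries per genotype. Map3k8 and Mapkapk2 lay near 2 at 3 to 6 hr, and Map2k6 reached -2.38 in WT and -2.14 in Cpeb4-/- cells at 6 hr.

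For the 3 kinases whose group means spanned at least 1, the genes with the most similar levels were sought among 13102 others by Pearson's r over the 40 libraries, which share mice and times. For Mapkapk2 they were Lcp2 (r = 0.993), Rhbdf2 (0.991) and Myd88 (0.990), the adaptor of most Toll-like receptors. For Map3k8 they were Tiparp (0.992), Eif1a (0.987) and Il27 (0.987), a cytokine subunit gene. For Map2k6 they were Kdsr (0.979), Dcaf8 (0.979) and Aph1c (0.978), the last a subunit of gamma-secretase.

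The study compared WT and Cpeb4-/- macrophages at each time to ask what CPEB4 does in the course of the LPS response. Mapk8 was higher in Cpeb4-/- cells, most at 6 and 9 hr, Map3k8 was lower at 6 hr, Mapk14 was higher at 6 hr and Mapk3 was slightly lower at 3 and 6 hr. The other 5 kinases passed the threshold at no time. In untreated cells 0 of 9 members passed, where 0.741% of 13095 genes were higher and 0.565% lower in Cpeb4-/- cells, and at 1 hr 0 of 9 passed (0.976% and 0.938% of 13118 genes). At 3 hr 1 member was lower and 0 higher (1.87% and 1.81% of 13083 genes), at 6 hr 2 were higher and 2 lower (6.40% and 9.92% of 13039 genes), and at 9 hr 1 was higher and 0 lower (4.69% and 3.22% of 13008 genes). At an unadjusted p under 0.05, 2 members passed in untreated cells, Mapk3 and Mapk8, and 3 at 1 hr, Mapk3, Map3k7 and Map2k3. The share of all genes at this unadjusted threshold was not counted, so no excess among the kinases can be read from these numbers. The median difference of the 9 members was -0.006, 0.03, 0.04, 0.04 and 0.12 from 0 to 9 hr, against 0.006, 0.02, 0.008, -0.02 and 0.004 over all genes tested.

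Mapk8 at 6 hr was the largest genotype difference among the 9 kinases. The 4 WT libraries, 8.44, 8.40, 8.42 and 8.41, were all below the 4 Cpeb4-/- libraries, 8.92, 8.84, 8.96 and 8.86. The difference was 0.47 ± 0.050 (1.39-fold, 95% interval 0.37 to 0.58, adjusted p = 0.000189), and it was 0.43 in batch 1 and 0.52 in batch 2. At 9 hr the WT libraries held 8.58, 8.55, 8.61 and 8.63 and the Cpeb4-/- libraries 8.86, 9.05, 8.92 and 9.01. They did not overlap, and the difference was 0.37 ± 0.061 (1.29-fold, adjusted p = 0.00738), 0.43 in batch 1 and 0.31 in batch 2. Both calls held under all 16 alternatives run for each time, with adjusted p up to 0.00220 at 6 hr and 0.0332 at 9 hr. Mapk8 was also higher in every Cpeb4-/- library untreated (0.17 ± 0.056, adjusted p = 0.178) and at 3 hr (0.23 ± 0.062, adjusted p = 0.0706), where the difference passed when all 40 libraries were fitted together, blocked by mouse (0.00905) or not (0.00494), and without WT mouse 88 (0.0180). At 1 hr the libraries overlapped (0.13, adjusted p = 0.215).

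Map3k8 was the kinase with the largest negative difference. At 6 hr WT cells held 11.86, 11.89, 11.87 and 12.14 and Cpeb4-/- cells 11.54, 11.71, 11.69 and 11.50, with no overlap. The difference was -0.33 ± 0.068 (0.794 of the WT level, 95% interval -0.48 to -0.19, adjusted p = 0.00671), -0.40 in batch 1 and -0.27 in batch 2. The WT library of mouse 88 was far above the other 3, and without this mouse the difference was -0.27 and still passed. It narrowly missed the threshold with no filter on low values (adjusted p = 0.0528). At the other times the differences lay between -0.07 and 0.10, none past the threshold. Their 95% intervals were -0.13 to 0.09 untreated, -0.009 to 0.22 at 1 hr, -0.14 to 0.09 at 3 hr and -0.19 to 0.04 at 9 hr.

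Mapk14 at 6 hr was at 11.58, 11.62, 11.70 and 11.56 in WT and at 11.84, 11.80, 11.80 and 11.72 in Cpeb4-/- cells, again with no overlap. The difference was 0.18 ± 0.042 (1.13-fold, adjusted p = 0.0139), 0.19 in batch 1 and 0.17 in batch 2. It did not pass when all 40 libraries were fitted together (adjusted p = 0.0574, or 0.0765 with a random block for the mouse) or without mouse 2 (0.0511). At the other times it ranged from -0.06 to 0.11.

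Mapk3 was lower in Cpeb4-/- cells at all 5 times by 0.13 to 0.24, and the call was the least stable of the 4. At 3 hr WT cells held 12.45, 12.46, 12.47 and 12.38 and Cpeb4-/- cells 12.23, 12.23, 12.29 and 12.27, with a difference of -0.19 ± 0.042 (adjusted p = 0.0423). At 6 hr it was -0.13 ± 0.039 (adjusted p = 0.0442). The libraries did not overlap at 1, 3 and 6 hr. The call at 3 hr was lost when any one mouse other than WT mouse 88 was left out (adjusted p 0.0748 to 0.138), and that at 6 hr when any one mouse other than WT mouse 88 was left out (0.0575 to 0.123). The call at 3 hr was also lost without the WT libraries of mice 25 and 87 (adjusted p = 0.112). The call at 6 hr was lost in 14 of 16 alternatives, among them quantile normalization (-0.08, adjusted p = 0.228), batch as a covariate (0.0621), no filter (0.0573) and a random block for the mouse (0.0981). At 1 hr the difference of -0.24 (adjusted p = 0.0731) passed with it (0.00207) and without WT mouse 69 (0.0424) or Cpeb4-/- mouse 2 (0.0485). At 9 hr the difference was -0.14 (adjusted p = 0.213) and passed without Cpeb4-/- mouse 2 (-0.20, 0.00837).

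**Figure D3:**
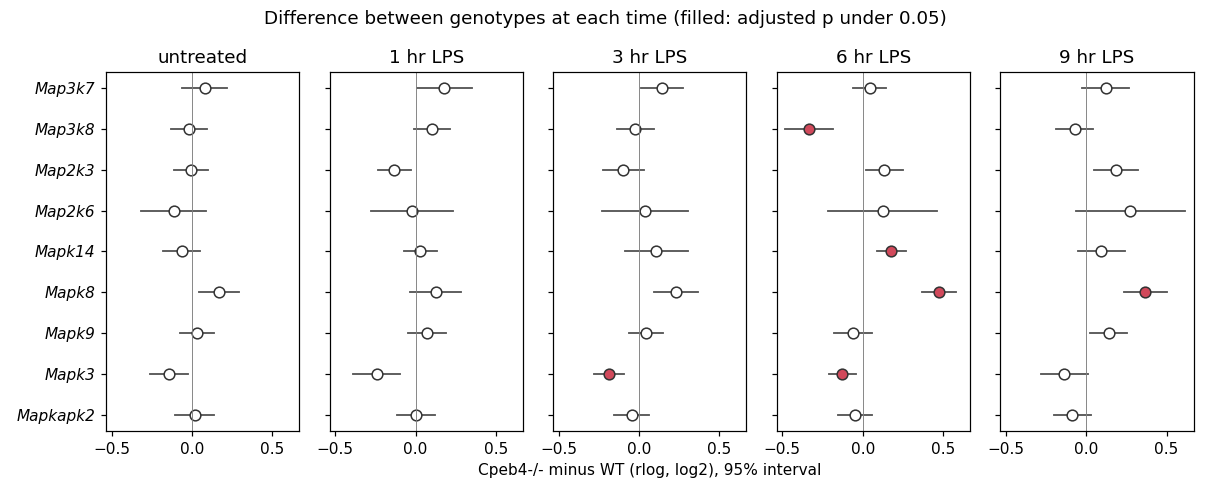
Difference of Cpeb4-/- minus WT libraries (rlog, log2, horizontal axis) for each of the 9 kinases at each time, 4 against 4 libraries, with bars for the 95% interval from limma and filled points for an adjusted p under 0.05. Mapk8 lay at 0.47 at 6 hr and 0.37 at 9 hr, Map3k8 at -0.33 at 6 hr, and the Mapkapk2 points lay within 0.09 of 0 at all 5 times.

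The remaining 5 kinases differed by less than 0.3 at each time. Mapkapk2 had the smallest range of differences, from -0.09 to 0.02, and its 95% intervals reached no further than -0.20 and 0.13 at any time. Under quantile normalization its difference at 6 hr turned from -0.05 to 0.10, past the threshold in neither. Map2k3 was -0.13 at 1 hr, with all Cpeb4-/- libraries below all WT libraries (adjusted p = 0.0979), and 0.18 at 9 hr (adjusted p = 0.0940), and with the mouse as a random block both passed (0.0390 and 0.00807). At 6 hr it was 0.13 (adjusted p = 0.108) and passed under quantile normalization (0.0426) or without WT mouse 69 (0.0470). Mapk9 at 9 hr was 10.62, 10.63, 10.59 and 10.63 in WT and 10.63, 10.81, 10.81 and 10.76 in Cpeb4-/- cells. The difference of 0.14 ± 0.052 had an adjusted p of 0.122, of 0.0410 with the mouse as a random block, and of 0.00561 without Cpeb4-/- mouse 2, which stood apart from the others at 9 hr. Map3k7 was higher in Cpeb4-/- cells at all 5 times, by 0.04 to 0.18, with overlapping libraries at each, and at 1 hr it passed with the mouse as a random block (adjusted p = 0.0378). It also passed at 3 hr without WT mouse 88 (0.0366) and at 9 hr without Cpeb4-/- mouse 2 (0.0433). Map2k6 had the widest errors, with a difference of 0.27 ± 0.15 at 9 hr (adjusted p = 0.278).

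Whether a kinase mRNA changed differently after LPS in the 2 genotypes was tested as an interaction in one fit of the 40 libraries. From untreated to 6 hr, 2 of 9 members passed, where 2.94% of the 13103 genes tested did. The change of Mapk8 was higher by 0.31 ± 0.075 in Cpeb4-/- cells (adjusted p = 0.0178), being -0.15 in WT and 0.16 in Cpeb4-/- cells. That of Map3k8 was lower (-0.31 ± 0.077, adjusted p = 0.0203), being 2.08 in WT and 1.76 in Cpeb4-/- cells. Mapk14 had a difference of 0.24 ± 0.092 (adjusted p = 0.163). Neither call was stable to leaving out a mouse. Mapk8 lost it without WT mouse 69 (adjusted p = 0.0739) or Cpeb4-/- mouse 2 (0.0577), 55 (0.0731) or 62 (0.0668), and Map3k8 without Cpeb4-/- mouse 2 (0.0940) or 62 (0.154) and under quantile normalization (0.0574). From untreated to 1, 3 and 9 hr 0 of 9 members passed, where 0.00763%, 0.206% and 1.76% of all genes did. At an unadjusted p under 0.05 these were 0 members at 1 and 3 hr and 3 at 9 hr: Mapk8 (0.20), Map2k3 (0.19) and Map2k6 (0.39). Here too the share of all genes at the unadjusted threshold was not counted. With the mouse as a fixed block, Map2k3 passed at 9 hr (adjusted p = 0.0463). These tests and those of the genotype at each time use the same libraries.

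The neighbours of these 9 kinases in the pathway were taken as 9 further lists, 94 genes in all, of which 88 were tested in WT cells over time. In WT cells 30 rose and 12 fell at 1 hr, and 44 rose and 31 fell at 3 hr. The later counts were 43 and 30, and 47 and 26. Over all genes tested, 17.3% rose and 16.6% fell at 1 hr, 32.5% and 35.3% at 3 hr, 38.7% and 39.2% at 6 hr, and 35.9% and 35.6% at 9 hr, and the counts of each list below stand against these shares. The lists were chosen with results of these data known, and several of their genes are well-known LPS targets. Among 14 transcription factors that MAP kinases phosphorylate, 7 rose and 0 fell at 1 hr, led by Junb (2.65 ± 0.074), an AP-1 subunit, and at 9 hr 7 rose and 2 fell, from Ets2 (1.61) to Mef2c (-2.04). Among 8 genes tied to MK2, p38 and mRNA stability, 4 rose at 1 hr, led by Tnf (4.36 ± 0.067), which encodes the cytokine TNF. At 9 hr 4 rose, Tnf at 1.82, and 4 fell, Zfp36l1 (a TTP relative) to a difference of -2.72.

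Of 10 MAPK phosphatases, which switch MAP kinases off, 6 rose at 1 hr and 2 fell. Dusp2 had the largest rise (3.76 ± 0.10) and Dusp6, which acts on ERK, the largest fall (-1.40 ± 0.12). At 9 hr 4 rose and 5 fell, from Dusp2 (1.80) to Dusp9 (-1.83). Of 15 partners of TAK1 and TPL2 and upstream adaptors, 6 rose and 2 fell at 1 hr, from Myd88 (0.66) to the receptor gene Tlr4 (-0.44), and 11 rose and 3 fell at 9 hr, from Myd88 (1.19) to Tab1 (-0.40), which encodes a TAK1 partner.

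Among the other kinases of the cascade, as over all genes, more passed the threshold at 9 hr than at 1 hr. Of 15 other MAP3Ks 3 rose and 4 fell at 1 hr, from Map3k6 (1.10) to Map3k12 (-0.40), and at 9 hr 4 rose and 6 fell, from Braf (0.97) to Map3k9 (-1.61). Of 5 other MAP2Ks none passed at 1 hr, while at 9 hr 4 rose, led by Map2k1 (MEK1, 1.07 ± 0.043), and Map2k5 fell (-0.13). Of 6 other MAP kinases Mapk6 rose (1.02) and Mapk7 fell (-0.55) at 1 hr, and 5 rose and 0 fell at 9 hr, led by Mapk11 (p38 beta, 0.71 ± 0.11). Of 9 other MAPK-activated kinases 2 rose and 1 fell at 1 hr, from Rps6ka2 (0.47) to Rps6ka1 (-0.23), and 5 rose and 3 fell at 9 hr, from Rps6ka4 (MSK2, 1.28) to Rps6ka5 (MSK1, -1.40). Of 6 scaffolds 1 rose and 2 fell at 1 hr, from Lamtor3 (0.26) to Mapk8ip1 (-0.40), and 3 rose and 2 fell at 9 hr, from Ksr1 (1.11) to Ksr2 (-1.93).

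**Figure D4:**
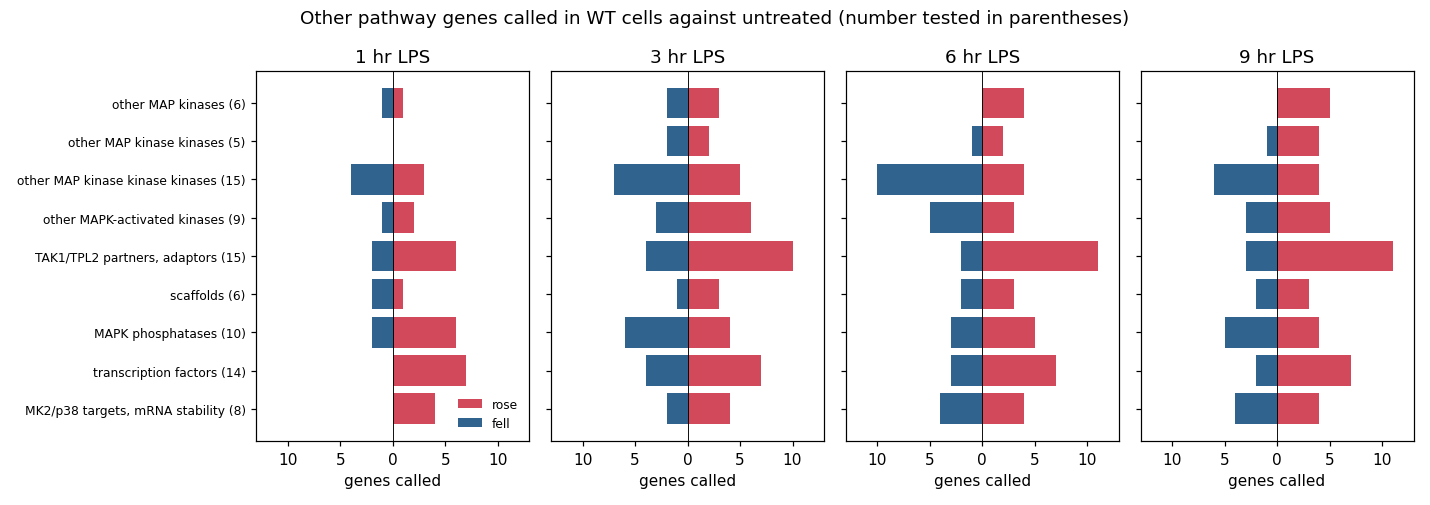
Number of genes called in WT cells against untreated cells (horizontal axis; rose to the right in red, fell to the left in blue) in each of the 9 lists of other pathway genes, with the number tested in parentheses, at 1, 3, 6 and 9 hr. The partners of TAK1 and TPL2 had 11 of 15 genes called as risen at 6 and at 9 hr, and the other MAP3Ks had 10 of 15 called as fallen at 6 hr.

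Between the genotypes, 1 of 88 tested pathway genes was higher and 0 lower in untreated Cpeb4-/- cells, namely Dusp9 (0.55 ± 0.095), where 0.741% and 0.565% of all genes were. At 1 hr 2 were higher and 1 lower (0.976% and 0.938% of all genes), from Map3k1 (0.26) to Map3k10 (-0.31). At 3 hr 4 of 89 were higher and 2 lower (1.81% and 1.87%), from Dusp9 (0.63) to Mapk8ip1 (-0.56). At 6 hr 9 of 89 were higher and 11 lower, where 6.40% and 9.92% of all genes were. Dusp6 had the largest positive difference (0.73 ± 0.15, adjusted p = 0.00691), and apart from the deleted gene Cpeb4 (-1.27), which one list holds, the largest negative difference was that of Map2k4 (-0.53 ± 0.057, adjusted p = 0.000196), which encodes the JNK kinase MKK4. At 9 hr 9 of 88 were higher and 5 lower (4.69% and 3.22% of all genes), from Map3k5 (ASK1, 0.72 ± 0.095) to Tnf (-0.46 ± 0.10). Of 88 tested pathway genes, the interaction passed for 0, 1, 6 and 4 from untreated to 1, 3, 6 and 9 hr. The shares of all genes tested were 0.00763%, 0.206%, 2.94% and 1.76%.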

How the data were processed

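RNA was sequenced from 40 libraries of 8 mice. Per the submitters' processing notes, the authors aligned reads with STAR 2.3.0e to mm10 and counted them per gene with featureCounts, and the deposited values are DESeq2 rlog values on a log2 scale. Rlog values shrink low counts and keep no totals, so the depth cannot be read from them and no counting interval is given. The study gives alignment statistics in its supplement, which were not used here. Columns of other measurements in the table numbered 0. Genes were kept where the rlog values of a fit averaged log2 of 5 or more. Differences were tested with limma 3.58.1 (R 4.3.3, trended eBayes, two-sided) and Benjamini-Hochberg adjustment over all genes kept. Genotypes were compared with 8 libraries at each time, times with 20 libraries of a genotype, and interactions with all 40. Errors are SEs from the fit. The code was tested on simulated data. Figures were drawn with matplotlib 3.10.9.

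The 9 kinases and the pathway lists were chosen with earlier results of these data known. Genes named from a list are its largest rise and fall past the threshold. The most similar genes were the 3 with the highest Pearson's r, for members whose group means spanned at least 1. Libraries of the same mouse deviated together from their group means (median r 0.29, over 0.1 in 68 of 80 pairs, against -0.091 between mice). The labels give the mouse, so the mouse was used as a block as an alternative. Replicates correlated at 0.992 to 0.998 over 60 pairs, and 0 pairs were identical. Alternatives were no filter, a stricter one (an average rlog of 5), variance moderation with no trend or in robust form, quantile normalization, batch as a covariate, other sets of libraries, the block and leaving out each mouse. Leaving out WT libraries at 1 or 3 hr was chosen after seeing the data. The 3′-UTRs and the positions of the stretches shown come from GENCODE M21 on GRCm38. Gene positions and overlapping genes come from RefSeq.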

Additional observations from a re-analysis of the deposited data

Results flagged for a closer look

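In 7 of the 90 groups of 4 libraries (9 kinases, 10 groups each), 1 library stood apart from the other 3 by Dixon's 95% criterion, where chance gives about 1 in 20. Mapk3 was 12.52 in untreated Cpeb4-/- mouse 55 (others 12.43 to 12.44), 12.47 in Cpeb4-/- mouse 2 at 1 hr (12.30 to 12.33) and 12.38 in WT mouse 88 at 3 hr (12.45 to 12.47). Map3k8 was 11.92 in Cpeb4-/- mouse 55 at 3 hr (12.00 to 12.01) and 12.14 in WT mouse 88 at 6 hr (11.86 to 11.89). Map3k7 was 10.64 in Cpeb4-/- mouse 2 at 1 hr (others 10.80 to 10.81), and Map2k3 was 12.54 in Cpeb4-/- mouse 62 at 1 hr (12.45 to 12.47). The change from untreated to 6 hr differed between the genotypes by the interaction test for Mapk8 (0.31) and Map3k8 (-0.31).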

How the results depend on the processing

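Of 2203 differences of single kinases under the alternatives, 2100 kept their direction and side of the threshold or passed in neither fit (58 of these changed sign), 35 passed newly, 60 no longer passed and 8 changed sign with a call in at least 1 fit. The 8 were all under quantile normalization: Mapk8 in WT at 6 hr (0.0823), Mapk14 in WT at 3 and 9 hr (-0.46 and -0.41) and in Cpeb4-/- cells at 3 and 9 hr (-0.26 and -0.24), Map2k3 at 6 hr in WT (-0.41) and Cpeb4-/- cells (-0.23), and Map3k7 in Cpeb4-/- cells at 6 hr (-0.14). The cause was not tested. Of kinases called between the genotypes, the count at 1 hr went from 0 to 2 with all 40 libraries and 3 with the mouse as a random replicate block, and leaving out a mouse gave 0 to 1. At 3 hr it went from 1 to 0 without trend, under quantile normalization, with batch as a covariate or without the WT libraries of mice 25 and 87, and to 2 with all 40 libraries or the block (0 to 3 without a mouse). At 6 hr it went from 4 to 2 with no filter, all 40 libraries or the block (2 to 4). Mapk3 at 6 hr was also lost without trend (adjusted p = 0.0916), in robust form (0.0512) and with batch as a covariate (0.0621). Under quantile normalization Mapk3 was lost at 6 hr (0.228) and Map2k3 passed (0.0426). At 9 hr the count went from 1 to 3 with all 40 libraries or the block (1 to 4). Of interactions at 6 hr, 2 became 1 under quantile normalization (0 to 2 without a mouse), and at 9 hr 0 became 1 with the block. The blocked fit changed no call of a single kinase other than those named with the results. Over all genes, the calls between genotypes at 1 hr numbered 251, and 4182 with all 40 libraries, 4323 with the block and 53 with no filter. They numbered 171 in untreated cells (50 to 414), 481 at 3 hr (1311, 1393 and 167), 2129 at 6 hr (1288 to 2159) and 1029 at 9 hr (2280, 2378 and 582). Leaving out 1 mouse gave 44 to 163 in untreated cells, 40 to 2440 at 1 hr, 76 to 2584 at 3 hr, 1347 to 2331 at 6 hr and 387 to 4575 at 9 hr, the last without Cpeb4-/- mouse 2. Interactions numbered 1, 27, 385 and 231 from 1 to 9 hr, with 0 to 8, 7 to 72, 227 to 1032 and 209 to 654 under the other alternatives and 0 to 2, 5 to 21, 84 to 391 and 89 to 226 without 1 mouse.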
